A study of Mus musculus with 16 samples.

Results

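The genes described here are 10 members of the unfolded protein response and the integrated stress response: Atf4, Atf5, Ddit3, Trib3, Hspa5, Xbp1, Asns, Chac1, Herpud1 and Sesn2. They were taken by symbol from the deposited gene table, where each of the 10 had 1 row among 45777 genes. All 10 passed the filter on low counts, which left 19189 genes for testing. RNA was sequenced from the epididymal white fat, a visceral depot, of male mice that overexpress leukotriene A4 hydrolase (gene Lta4h) in adipocytes and of their control mice. The former are called A-LTA4HOE in the labels and OE here, and the latter are called Ctrl. Both genotypes were put on the same high-fat chow, with 60% of its calories from fat, when 4 weeks old. One set was 8 weeks old when sampled (4 weeks of diet) and the other 20 weeks old (16 weeks of diet). The groups are therefore Ctrl and OE at 8 weeks and Ctrl and OE at 20 weeks, with 4 libraries each. No group was kept on another diet, so age and time on the diet cannot be told apart, and neither can any batch that followed age. The transgene's promoter, the alleles of the control mice and whether a library holds 1 mouse or several are not given in the labels, so the p-values measure the spread between these libraries.

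Cells that accumulate unfolded protein in the endoplasmic reticulum (ER) respond through the sensors IRE1, PERK and ATF6, which raise chaperones and degradation factors and slow protein synthesis. PERK shares its target, the translation factor eIF2, with kinases that sense amino acid shortage, haem shortage and viral RNA, and that common branch is the integrated stress response. Phosphorylated eIF2 favours translation of the transcription factors ATF4 and ATF5, so the activity of these factors need not follow their mRNA, and XBP1 becomes active when IRE1 splices its mRNA, which gene-level counts do not show. In obese fat pads, ER stress markers have long been studied beside inflammation and insulin resistance.

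Promoter sequences show which members carry the letters of the DNA elements known for these branches, and the matches are shown because several members are known as targets through such elements. Each promoter ran from 250 bases before to 50 bases after a RefSeq transcription start on GRCm38.p6, and the 10 genes had 11 promoters because Atf5 has a pair of starts. The C/EBP-ATF composite element, bound by ATF4 with C/EBP partners, was searched as TGATGNAA. The ER stress element, bound by ATF6 with NF-Y, was searched as CCAAT and CCACG separated by any 9 bases, and its second form as ATTGG, any base, CCACG. The UPR element, bound by XBP1 and ATF6, was searched as TGACGTGG. Both strands were searched, and the overlap between motifs was not restricted. TGATGNAA was in the promoters of 4 members (Asns, Trib3, Chac1 and Herpud1) and in 3.97% of all 32851 promoters of the table. The ER stress element was in that of Hspa5 and in 0.119% of all promoters, its second form was in that of Herpud1 and in 0.0365% of all, and the UPR element was in 0 of the 11 and in 0.676% of all. A match is a description of letters and not evidence that a factor binds there. In the stretches below, read 5′ to 3′ on the gene's strand from RefSeq, capitals mark the motif, which appears as its reverse complement in Trib3, Chac1 and the first match of Herpud1. The Asns stretch is chr6:7693214-7693243 on the minus strand, and the Trib3 stretch is chr2:152344028-152344057 on the minus strand. The Chac1 stretch is chr2:119351038-119351067 and the Hspa5 stretch is chr2:34772020-34772049, both on the plus strand. For Herpud1, the one member with both kinds of motif, the 250 bases before the start are given whole, chr8:94386179-94386428 on the plus strand.
Asns: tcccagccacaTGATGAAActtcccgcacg
Trib3: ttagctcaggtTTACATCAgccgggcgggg
Chac1: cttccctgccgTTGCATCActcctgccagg
Hspa5: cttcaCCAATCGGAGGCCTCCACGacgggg
Herpud1: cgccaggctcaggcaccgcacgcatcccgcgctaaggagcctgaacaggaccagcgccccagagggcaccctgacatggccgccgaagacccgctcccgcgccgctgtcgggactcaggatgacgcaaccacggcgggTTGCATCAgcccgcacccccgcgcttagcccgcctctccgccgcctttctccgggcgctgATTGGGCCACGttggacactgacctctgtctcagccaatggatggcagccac

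Libraries held 33.6 to 67.6 M counts (M for mega). Lta4h, the check of the labels, was higher in every OE library than in every Ctrl library of the same age, with log2 fold changes of 1.98 ± 0.14 at 8 weeks and 1.60 ± 0.14 at 20 weeks (± standard error). Several libraries stood apart. On the first principal component, which held 55.8% of the variance, Ctrl_8wk 1 and OE_8wk 1 lay at -29.9 and -19.5 while the rest of the 8-week libraries spread from 68.8 to 125, and OE_20wk 1 lay at 22.4 while the rest of the 20-week libraries spread from -96.6 to -66.7. Ctrl_8wk 4 and OE_8wk 2 held transcripts of epididymal duct genes. The CPM (counts relative to the TMM-scaled library total) of 12 epithelial markers summed to 3684 and 2423 in them, with 3 and 6 markers at 0. The sum was 167 or less elsewhere. Most of it came from Crisp1, which reached 3672 CPM where it was highest, while Adam7 reached 24.0 CPM. The CPM of 9 smooth muscle markers also summed to 4393 and 4300 in these libraries, and to 985 or less elsewhere. Of 15 mature adipocyte markers, none was at 0 in any library. Their summed CPM ran from 34957 to 51165 in Ctrl and from 30895 to 55811 in OE at 8 weeks, and from 19687 to 30536 in Ctrl and from 22931 to 39453 in OE at 20 weeks.

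On the authors' TPM, which corrects for transcript length, group means ran from 6.21 to 511. Hspa5 (BiP), the main ER chaperone, was highest in all 4 groups, with 440 ± 64.5 TPM in Ctrl at 8 weeks and 511 ± 114 TPM in Ctrl at 20 weeks (SD, n = 4), and its range did not overlap that of the next gene in any group. The transcription factors Atf5, Xbp1 and Atf4 followed, at 169 ± 31.9, 161 ± 15.9 and 159 ± 11.2 TPM in Ctrl at 8 weeks, with ranges that overlapped between neighbours. Herpud1, Ddit3, Asns and Sesn2 came next at 67.1, 55.7, 44.3 and 25.3 TPM in the same group. Trib3 and Chac1, at 7.31 ± 1.03 and 6.43 ± 1.13 TPM, were lowest in every group and overlapped each other. The order below Hspa5 moved between the ages: Atf5 led these 3 factors in Ctrl at 8 weeks and was the lowest of them in both groups at 20 weeks, where Atf4 led, but Atf4, Xbp1 and Atf5 overlapped with their neighbours in each group. The lowest members were still well counted, with 186 to 436 counts per library for Trib3 and 135 to 409 for Chac1.

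**Figure D1:**
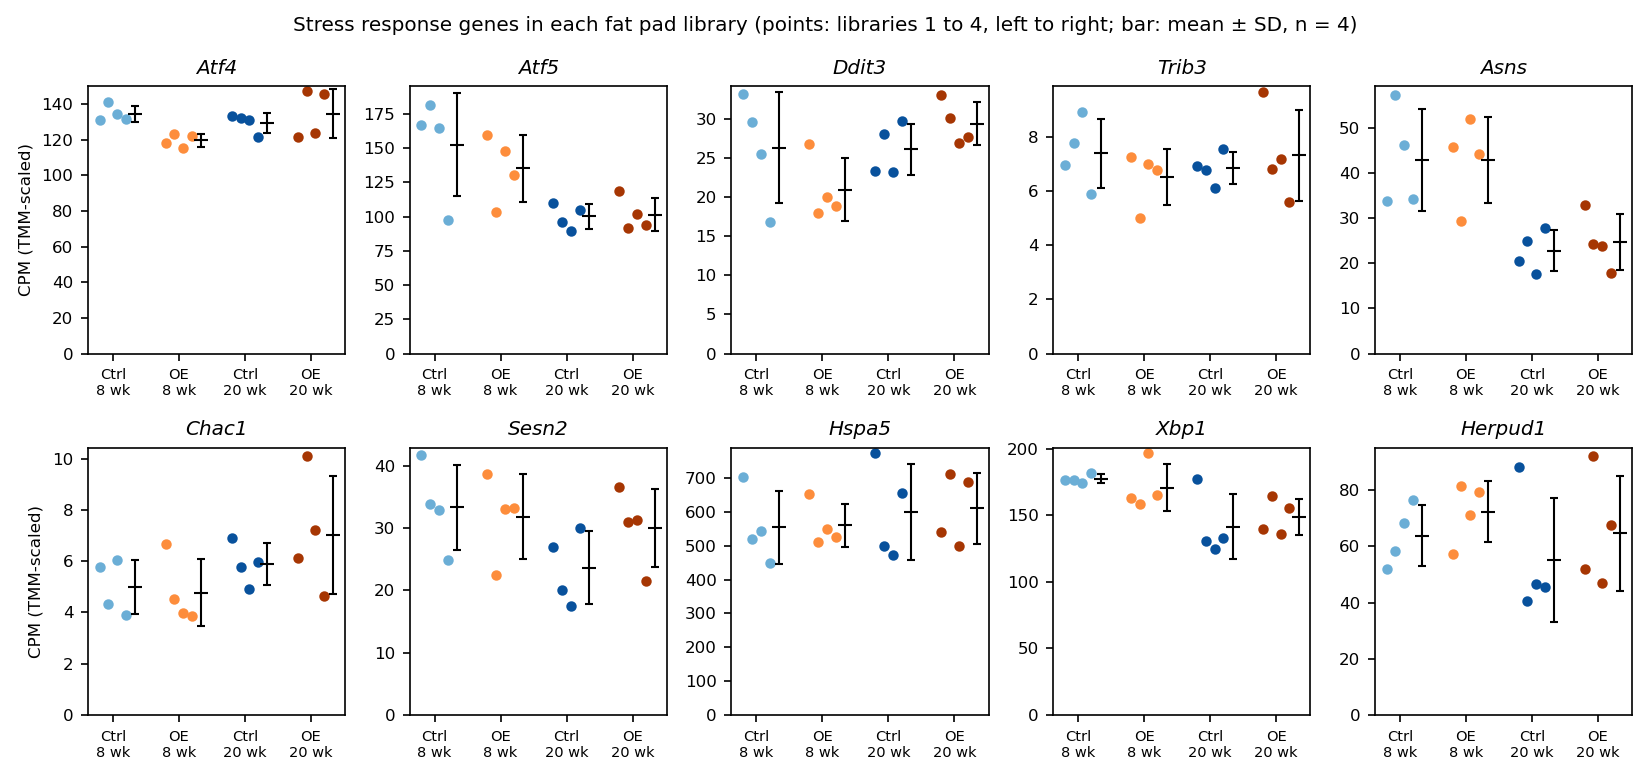
Each panel plots the TMM-scaled CPM of 1 gene (vertical axis, from 0) in the 16 libraries by group, with the mean and SD of the 4 libraries as a bar beside the points. Asns in Ctrl runs from 33.8 to 57.4 CPM at 8 weeks and from 17.7 to 27.9 CPM at 20 weeks, while Atf4 stays between 115 and 147 CPM in all libraries.

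The 20-week and 8-week Ctrl libraries show how the control fat pad differs between the ages, which also differ in time on the diet. In Ctrl, 3 of the 10 genes fell with age and diet: Asns by 1.88-fold, Atf5 by 1.52-fold and Xbp1 by 1.25-fold. None rose. All were called by edgeR's quasi-likelihood test at an adjusted p under 0.05. The 3 lower members of 10 stand beside 21.3% of all genes tested that were lower, and the 0 higher members beside 19.6% that were higher, so the share that was lower is near the background. The median log2 fold change of the 10 was -0.16 and that of all genes tested was -0.05. In OE the same comparison gave 1 lower gene, Asns, beside 9.91% of all genes, and 0 higher beside 13.1%, with medians of 0.02 for the 10 and -0.03 for all genes. At an unadjusted p under 0.05 with edgeR the 10 held 4 genes in Ctrl and 5 in OE, beside 9629 and 7064 of all 19189 genes tested. DESeq2 called 0 members higher in Ctrl and 1 in OE, and limma voom 0 and 3.

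Among the transcription factors, Atf4, which drives the amino acid and redox genes of the integrated stress response, varied little. Its CPM was 131, 141, 135 and 131 in Ctrl_8wk libraries 1 to 4 and 133, 132, 131 and 121 in Ctrl_20wk, a log2 fold change of -0.06 ± 0.07 (95% interval -0.21 to 0.10, adjusted p = 0.559 with edgeR). It was 118, 123, 115 and 122 in OE_8wk and 122, 147, 124 and 146 in OE_20wk, a difference of 0.17 ± 0.07 (adjusted p = 0.101). Libraries of both ages overlapped in both genotypes, and OE_20wk 2 and 4 were the highest of all 16. Without OE_20wk 1 the OE difference was 0.23 ± 0.07 and was called (adjusted p = 0.0349).

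Atf5, a factor of the same family linked to the mitochondrial unfolded protein response, had 167, 182, 164 and 97.3 CPM in Ctrl_8wk and 110, 96.0, 89.6 and 105 CPM in Ctrl_20wk. It fell by 0.61 ± 0.18 on the log2 scale (adjusted p = 0.0147 with edgeR). Ctrl_8wk 4, one of the libraries with epididymal transcripts, lay among the 20-week values and made the groups overlap. In OE it had 160, 103, 148 and 131 CPM at 8 weeks and 119, 91.5, 102 and 93.6 CPM at 20 weeks, a log2 fold change of -0.41 ± 0.18 (adjusted p = 0.103). OE_8wk 2, the other library with epididymal transcripts, was the lowest of its group. Without these libraries the values were -0.78 ± 0.10 in Ctrl (adjusted p = 0.000246) and -0.52 ± 0.10 in OE (adjusted p = 0.0035), so Atf5 was then called in both genotypes. Leaving out Ctrl_8wk 4 or OE_8wk 2 alone also gave a call in OE (adjusted p = 0.0290 and 0.0427). The fit was also run with 2 surrogate variables, estimated from variation shared by many genes. Whether these variables also carry differences between the ages was not measured. With them the Ctrl call of Atf5 was lost and the sign turned, at 0.08 ± 0.17 in Ctrl (adjusted p = 0.880) and 0.04 ± 0.13 in OE (adjusted p = 0.907). The cause was not tested. The gene span of Atf5, introns included, overlaps those of Nup62 and Il4i1 on the opposite strand by 571 and 272 bases. Overlap of exons was not measured, and the strand setting of the counting is not given in the sources used here.

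Ddit3 (CHOP), the factor tied to prolonged ER stress and apoptosis, had 33.2, 29.6, 25.5 and 16.8 CPM in Ctrl_8wk and 23.4, 28.0, 23.2 and 29.7 CPM in Ctrl_20wk. The groups overlapped, and the log2 fold change was -0.01 ± 0.18 (adjusted p = 0.968 with edgeR). In OE it had 26.8, 17.9, 20.0 and 18.9 CPM at 8 weeks and 33.0, 30.1, 26.8 and 27.6 CPM at 20 weeks. Every OE_20wk library was above every OE_8wk library, by a small margin, and 12.9% of all genes were arranged so. The difference of 0.49 ± 0.18 had an adjusted p of 0.0643 and was not called. Without Ctrl_8wk 1 and OE_8wk 1, which stood apart on the first component, it was 0.63 ± 0.17 (adjusted p = 0.0168), and without the libraries with epididymal transcripts 0.42 ± 0.14 (adjusted p = 0.0413), both called. It was also called without OE_8wk 1 alone (adjusted p = 0.0276) or Ctrl_8wk 4 alone (adjusted p = 0.0183). The OE difference with 2 surrogate variables was 0.70 ± 0.16 and was called (adjusted p = 0.0229). The gene span of Ddit3 shares 71 bases with that of Mars on the opposite strand.

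Xbp1, the factor activated by IRE1, had 176, 177, 174 and 182 CPM in Ctrl_8wk, a tight group with an SD of 3.35. In Ctrl_20wk it had 178, 130.3, 125 and 133 CPM. Library 1 lay inside the 8-week range and the other 3 lay below it. The log2 fold change was -0.33 ± 0.11 (adjusted p = 0.0296 with edgeR). The call was narrow: without Ctrl_8wk 1 and OE_8wk 1 the adjusted p was 0.0512, and without the libraries with epididymal transcripts it was 0.0517, at log2 fold changes of -0.33 and -0.32. It was also lost without any one of Ctrl_8wk 2, 3 or 4 or Ctrl_20wk 2, 3 or 4, with adjusted p from 0.0502 to 0.0941. Without Ctrl_20wk 1 the difference was -0.46 ± 0.09 (adjusted p = 0.0024). With 2 surrogate variables it was -0.37 ± 0.22 and was not called (adjusted p = 0.513). In OE, Xbp1 had 163, 158, 197 and 165 CPM at 8 weeks and 139.6, 165, 136 and 156 CPM at 20 weeks, a difference of -0.20 ± 0.11 that was not called (adjusted p = 0.209).

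Of the effectors that ATF4 and CHOP are known to induce, Asns, which makes asparagine from aspartate and glutamine, had the largest change of the 10 in both genotypes. It had 33.8, 57.4, 46.4 and 34.3 CPM in Ctrl_8wk and 20.5, 25.0, 17.7 and 27.9 CPM in Ctrl_20wk. All 20-week libraries lay below all 8-week libraries, as for 14.8% of all genes. Asns fell by 0.91 ± 0.23 on the log2 scale (adjusted p = 0.0066 with edgeR). In OE it had 45.9, 29.5, 52.0 and 44.3 CPM at 8 weeks and 32.9, 24.4, 23.8 and 17.9 CPM at 20 weeks. OE_8wk 2 was the lowest of its group and OE_20wk 1 the highest of its own, and these crossed. Asns fell by 0.79 ± 0.23 in OE (adjusted p = 0.0218). Leaving out Ctrl_8wk 1, OE_8wk 1 and OE_20wk 1 gave falls of 1.01 ± 0.22 in Ctrl and 0.93 ± 0.24 in OE, and leaving out the libraries with epididymal transcripts gave 1.01 ± 0.22 and 0.94 ± 0.22, all called. In OE the call was lost without any one of OE_8wk 3, OE_8wk 4, OE_20wk 2, OE_20wk 3 or OE_20wk 4, with adjusted p from 0.0517 to 0.0764. With 2 surrogate variables neither call held and the Ctrl sign turned: the differences were 0.25 ± 0.25 in Ctrl (adjusted p = 0.740) and -0.03 ± 0.19 in OE (adjusted p = 0.959). The cause was not tested. In whole tissue, fewer cells of a type and less RNA per cell cannot be told apart. Mature adipocyte markers fell beside Asns, 10 of 15 in Ctrl and 8 of 15 in OE, and macrophage markers rose, 11 of 11 and 10 of 11. The macrophage sum ran from 1395 to 2397 CPM in Ctrl and 1739 to 3049 CPM in OE at 8 weeks, and from 5120 to 8227 CPM and 3485 to 8045 CPM at 20 weeks, with no marker at 0. Other cell type lists moved between the same groups. Lipid-associated macrophage markers rose, 9 of 9 in both genotypes, as did 6 of 7 mast cell markers in both and 5 of 8 B and plasma cell markers in Ctrl. Smooth muscle markers fell, 7 of 9 in Ctrl and 6 of 9 in OE, as did endothelial markers, 6 of 7 and 2 of 7, and mesothelial markers, 3 of 10 and 8 of 10. The part of these cell types in the result was not tested.

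Sesn2, an inhibitor of mTORC1 signalling that senses leucine, had 41.7, 33.8, 32.9 and 24.9 CPM in Ctrl_8wk and 27.1, 20.0, 17.6 and 30.05 CPM in Ctrl_20wk. Ctrl_8wk 4 lay below Ctrl_20wk 1 and 4 and made the groups overlap. The difference of -0.49 ± 0.22 was not called (adjusted p = 0.0816 with edgeR), and without the libraries with epididymal transcripts it was -0.61 ± 0.20 and was called (adjusted p = 0.0265), as it was without Ctrl_8wk 4 alone (0.0421) or Ctrl_20wk 4 alone (0.0459). The Ctrl value with 2 surrogate variables was 0.27 ± 0.23 (adjusted p = 0.686). In OE it had 38.7, 22.4, 33.0 and 33.3 CPM at 8 weeks and 36.5, 31.0, 31.2 and 21.5 CPM at 20 weeks, a difference of -0.08 ± 0.22. The gene span of Sesn2, introns included, shares 6089 bases with that of Gm12981 on the same strand. Overlap of their exons was not measured, so whether reads were split between them is not known.

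Trib3, a pseudokinase that restrains AKT and ATF4, had 6.98, 7.79, 8.96 and 5.90 CPM in Ctrl_8wk and 6.95, 6.80, 6.13 and 7.57 CPM in Ctrl_20wk. In OE it had 7.28, 5.01, 7.01 and 6.81 CPM at 8 weeks and 9.67, 6.84, 7.20 and 5.61 CPM at 20 weeks. Ages overlapped in both genotypes, with differences of -0.11 ± 0.18 and 0.17 ± 0.18 that were not called (adjusted p = 0.644 and 0.518 with edgeR). They were, with 2 surrogate variables, 0.79 ± 0.19 in Ctrl (adjusted p = 0.0645) and 0.74 ± 0.14 in OE (adjusted p = 0.0102), the latter called. The cause was not tested.

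Chac1, which degrades glutathione, had 5.76, 4.34, 6.03 and 3.88 CPM in Ctrl_8wk and 6.90, 5.77, 4.90 and 5.97 CPM in Ctrl_20wk. In OE it had 6.69, 4.53, 3.99 and 3.86 CPM at 8 weeks and 6.11, 10.1, 7.20 and 4.64 CPM at 20 weeks. OE_20wk 2 was the highest of all libraries, and the ages overlapped in both genotypes. The differences were 0.23 ± 0.24 in Ctrl (adjusted p = 0.462 with edgeR) and 0.56 ± 0.24 in OE (adjusted p = 0.114). Without Ctrl_8wk 1 and OE_8wk 1 the OE value was 0.77 ± 0.25 and was called (adjusted p = 0.0402), as it was without OE_8wk 1 alone (0.0415).

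The members that encode ER proteins, Hspa5 and Herpud1, did not pass the test in either genotype. Hspa5 had 704, 521, 544 and 448 CPM in Ctrl_8wk and 774, 499.7, 471 and 655 CPM in Ctrl_20wk, and 652, 511, 551 and 524 CPM in OE_8wk and 540.0, 712, 500.4 and 689 CPM in OE_20wk. The ages overlapped widely, with differences of 0.11 ± 0.18 (95% interval -0.27 to 0.50) in Ctrl and 0.13 ± 0.18 (-0.26 to 0.51) in OE. Herpud1, a membrane protein of ER-associated degradation, had 51.8, 58.3, 68.3 and 76.4 CPM in Ctrl_8wk and 88.2, 40.4, 46.6 and 45.5 CPM in Ctrl_20wk. Library 1 was the highest and the other 3 lay below all 8-week libraries, so the groups overlapped through 1 library. The difference was -0.21 ± 0.25 (adjusted p = 0.531 with edgeR), and without Ctrl_20wk 1 it was -0.53 ± 0.21 (adjusted p = 0.0674). In OE, Herpud1 had 57.4, 81.5, 71.3 and 79.4 CPM at 8 weeks and 51.8, 92.2, 46.8 and 67.5 CPM at 20 weeks, a difference of -0.16 ± 0.25. The span of the antisense gene Gm15890 overlaps that of Herpud1 by 544 bases, introns included.

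**Figure D2:**
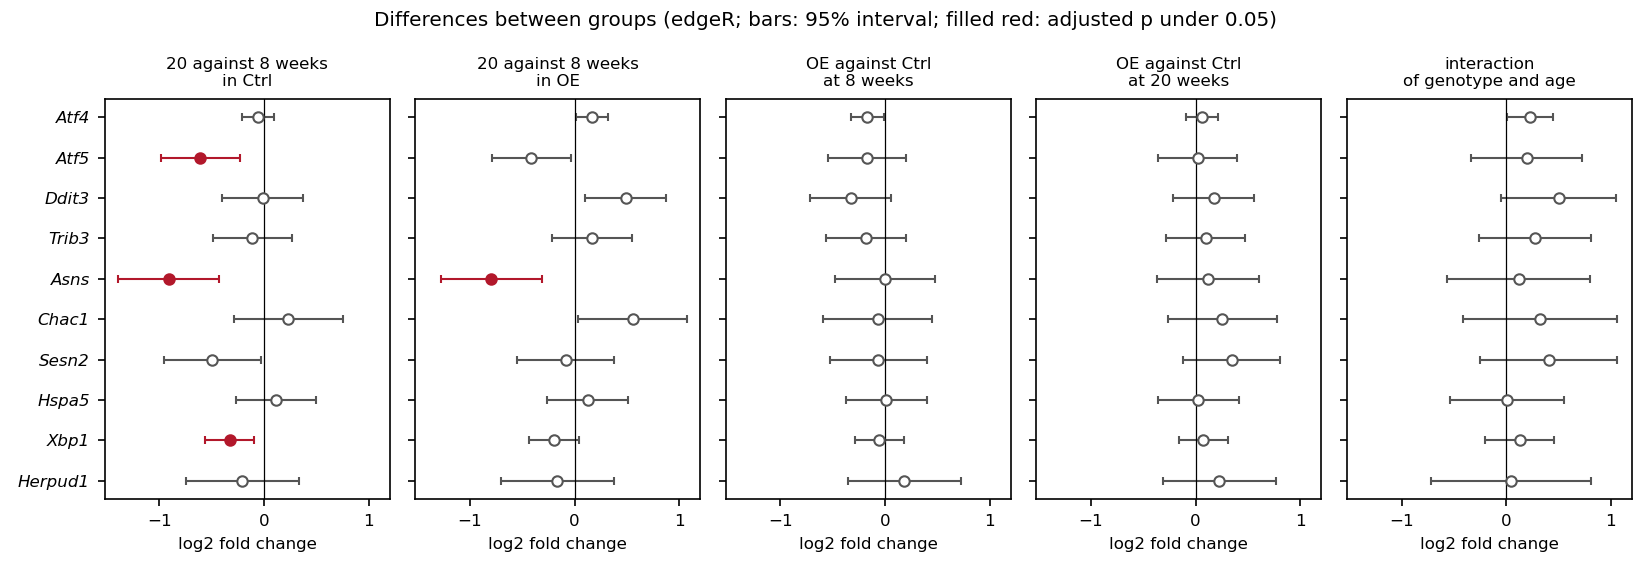
Log2 fold changes of the 10 genes (horizontal axis) in 5 comparisons, with 95% intervals as bars and filled red points for an adjusted p under 0.05 with edgeR. Red points are Asns, Atf5 and Xbp1 in the panel for 20 against 8 weeks in Ctrl and Asns in that for OE, and the genotype and interaction panels hold none.

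The comparison of OE with Ctrl asked what extra Lta4h in adipocytes does to the same tissue. No member was called with genotype at either age. At 8 weeks, 0 of 10 were higher beside 0.0208% of all genes tested and 0 lower beside 0%. At 20 weeks, 0 of 10 were higher beside 0.0261% and 0 lower beside 0%, and for the average over both ages the counts were 0 and 0 beside 0.0365% and 0%. With so few genes called anywhere by edgeR, a count of 0 is what the background gives. At an unadjusted p under 0.05 the members held 1 gene at 8 weeks, 0 at 20 weeks and 0 in the average, against 424, 762 and 389 of all genes, and DESeq2 and limma voom also called 0 members in each. The 95% intervals of the members reach at most 1.65-fold in either direction at 8 weeks, 1.75-fold at 20 weeks and 1.503-fold in the average.

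At 8 weeks the log2 fold changes ran from -0.33 ± 0.18 (Ddit3) to 0.18 ± 0.25 (Herpud1), and 8 of 10 were negative. Atf4 was the only member whose groups did not overlap. Of all genes, 0.448% had every OE_8wk library below every Ctrl_8wk library, and 0.787% had every one above. For Atf4 the 4 OE_8wk libraries, at 115 to 123 CPM, lay below the 4 Ctrl_8wk libraries, at 131 to 141 CPM. Its difference was -0.17 ± 0.07, with an unadjusted p of 0.0338 and an adjusted p of 1, and it was between -0.15 and -0.20 with 1 library left out, without the libraries that stood apart and with the other tools. At 20 weeks the Atf4 groups overlapped, with a difference of 0.06 ± 0.07. At that age all 10 differences were positive, from 0.02 (Atf5) to 0.34 ± 0.22 (Sesn2), none called, with adjusted p of at least 0.996, and the median of the 10 was 0.11 against 0.02 for all genes. The sign held in 22 of 26 alternatives for Atf5 and Hspa5, in 23 for Trib3 and Asns and in all 26 for the other 6. Sesn2 was 36.5, 31.0, 31.2 and 21.5 CPM in OE_20wk against 27.1, 20.0, 17.6 and 30.05 CPM in Ctrl_20wk, and 3 OE libraries lay above all Ctrl libraries while OE_20wk 4 lay among them.

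The interaction asked whether the change from 8 to 20 weeks differs between the genotypes. It was called for 0 of 10 members in either direction, beside 0% of all genes in each. All 10 estimates were positive, from 0.01 (Hspa5) to 0.50 ± 0.26 (Ddit3), with a median of 0.21 against 0.02 for all genes. Of 25 alternatives, Hspa5 kept that sign in 17, Herpud1 in 19, Asns in 21, and Atf5 and Trib3 in 24, and the other 5 genes kept it in all. Atf4, at 0.23 ± 0.10, was the 1 member with an unadjusted p under 0.05 (0.0428), as were 650 of all genes. DESeq2 and limma voom also called 0 members. The loss of the Atf5 and Xbp1 calls in OE is therefore not shown to be a difference between the genotypes: their interactions were 0.19 ± 0.25 and 0.13 ± 0.16. The intervals allow differences between the age effects of up to 2.09-fold. The members at one age share libraries across these comparisons, so the signs are not independent of each other.

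Some members had their highest or lowest value within a group in the same library as the summed mature adipocyte markers. The mature adipocyte sum was highest in Ctrl_8wk 2, OE_8wk 3, Ctrl_20wk 4 and OE_20wk 1 and lowest in Ctrl_8wk 4, OE_8wk 2, Ctrl_20wk 3 and OE_20wk 4. Asns had its highest or lowest value in the same library at 7 of these 8 ends, which 3.30% of all genes reached or exceeded, and Sesn2 and Trib3 at 6 (7.65% of genes). Atf5 and Ddit3 shared 5 ends, Hspa5, Xbp1 and Chac1 shared 3, Atf4 shared 1 and Herpud1 shared 0. Of the libraries with the lowest adipocyte sums, Ctrl_8wk 4 and OE_8wk 2 also held the epididymal transcripts and the high smooth muscle sums. The part of that tissue in the shared ends was not tested. Xbp1 and Herpud1 were instead high in Ctrl_20wk 1. The sum of 8 B and plasma cell markers was 287 CPM there, against 22.3 to 60.2 CPM in the other Ctrl_20wk libraries, with no marker at 0. The sum of 7 T cell markers was also highest there, at 54.2 CPM against 13.5 to 17.7 CPM. In OE_20wk both genes were highest in library 2, where the B and plasma cell and T cell sums, 67.4 and 19.9 CPM, were the highest of the group. So were the macrophage, mast cell, neutrophil and mesothelial sums of that library, at 8045, 151, 27.9 and 140 CPM. OE_20wk 4 had the lowest B and plasma cell and T cell sums of the group, 10.8 and 7.51 CPM. Xbp1 and Herpud1 were 156 and 67.5 CPM there, below library 2 only. At 8 weeks the B and plasma cell sum was highest in Ctrl_8wk 3 and OE_8wk 2. Xbp1 was the lowest of its group in each, at 174 and 158 CPM. Herpud1 was 68.3 and 81.5 CPM there, the latter the highest of its group. The part of these cells in the levels was not tested.

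**Figure D3:**
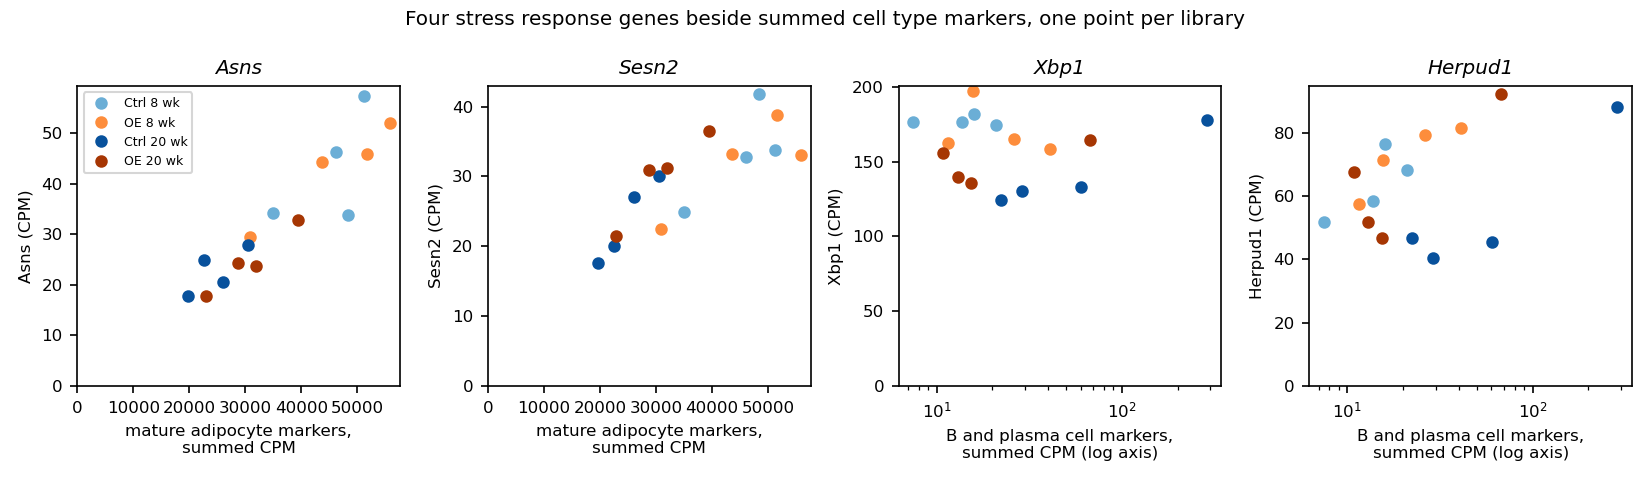
Asns and Sesn2 are plotted against the summed CPM of 15 mature adipocyte markers, and Xbp1 and Herpud1 against that of 8 B and plasma cell markers on a log axis, with 1 point per library coloured by group. The lowest Asns values lie at the lowest adipocyte sums in Ctrl_20wk and OE_20wk, and Ctrl_20wk 1 stands alone at 287 CPM of B and plasma cell markers.

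The other genes of the pathways were read from 8 lists with 101 genes, all of them tested. With age in Ctrl 22 rose and 18 fell, and in OE 11 rose and 11 fell, which is close to the shares over all genes given above. Those shares, 19.6% higher and 21.3% lower in Ctrl and 13.1% and 9.91% in OE, also stand beside the counts of each list below. Of the 40 called in Ctrl and the 22 called in OE, 10 were higher in both and 11 lower in both, and 0 went in opposite directions. No list gene was called in any genotype comparison or in the interaction. Median log2 fold changes in Ctrl were 0.16 for the sensors and kinases, -0.18 for eIF2 control, -0.11 for ER-associated degradation and -0.37 for mitochondrial proteostasis, against -0.05 for all genes. Sensors and eIF2 kinases had 3 of 9 higher and 1 lower in Ctrl: Eif2ak4 (GCN2, the sensor of uncharged tRNA) rose by 0.56 ± 0.08 in Ctrl (adjusted p = 2.5e-04 with edgeR) and by 0.46 ± 0.08 in OE, and Mbtps2 and Atf6 rose in Ctrl by 0.61 ± 0.12 and 0.34 ± 0.09. Mbtps1, the protease that acts before MBTPS2 on ATF6, fell by 0.15 ± 0.06 in Ctrl and 0.24 ± 0.06 in OE. The other sensors were not called, and Eif2ak3 (PERK) and Ern1 (IRE1) differed by 0.09 ± 0.08 and 0.26 ± 0.18 in Ctrl. Of 8 genes of eIF2 control, 2 fell in Ctrl and 1 in OE, Eif2b3, a subunit of the exchange factor of eIF2, by 0.80 ± 0.16 and 0.68 ± 0.16.

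Of 18 ER chaperones and folding enzymes, 7 were higher and 0 lower with age in Ctrl, beside 19.6% and 21.3% of all genes, and their median was 0.26 beside -0.05 for all genes. Ero1lb, an oxidase that feeds disulphide formation, rose by 1.26 ± 0.18 in Ctrl, from 9.68 ± 1.59 to 23.2 ± 2.02 CPM (SD, n = 4), and in OE from 10.6 ± 1.94 to 21.1 ± 5.31 CPM. Calr and Canx, the lectin chaperones calreticulin and calnexin, rose in Ctrl by 0.48 ± 0.12 and 0.34 ± 0.10, and Sdf2l1 by 1.05 ± 0.31. In OE, 2 of 18 rose beside 13.1% of all genes, Ero1lb and Dnajb9 (0.30 ± 0.10), with a median of 0.08 beside -0.03. ER-associated degradation was split, with 3 of 15 higher and 3 lower in Ctrl and 1 and 2 in OE: Derl1 fell by 0.46 ± 0.10 and 0.53 ± 0.10 and Edem2 rose by 0.46 ± 0.11 and 0.38 ± 0.11 in Ctrl and OE. Derl3 rose in Ctrl by 1.52 ± 0.47 from 0.51 ± 0.13 to 1.45 ± 1.09 CPM (SD, n = 4), a gene at very low levels.

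The known ATF4 targets and amino acid genes changed in both directions. In Ctrl 5 of 28 rose and 8 fell, beside 19.6% and 21.3% of all genes, with a median of -0.05, as for all genes. Atf3, a stress factor, went from 13.7 ± 6.56 to 193 ± 55.5 CPM (SD, n = 4), a log2 fold change of 3.82 ± 0.44, and Gdf15, a secreted stress hormone, from 0.97 ± 0.35 to 8.13 ± 2.22 CPM, 3.06 ± 0.47. In OE these rose by 3.44 ± 0.43 and 2.24 ± 0.45, and Slc3a2, the heavy chain of amino acid transporters, by 0.33 ± 0.07. In Ctrl the 4 with the smallest adjusted p that fell are enzymes of serine and alanine metabolism and a secreted glycoprotein, Stc2: Phgdh, the first enzyme of serine synthesis, fell by 1.63 ± 0.30 in Ctrl and 1.30 ± 0.30 in OE, Psph by 1.05 ± 0.15 and 0.51 ± 0.15, Gpt2 by 1.28 ± 0.16 and 1.15 ± 0.16, and Stc2 itself by 2.49 ± 0.25 and 1.73 ± 0.25. In OE, Eif4ebp1, a repressor of cap-dependent translation, took the place of Psph among the 4 and fell by 0.85 ± 0.23 (adjusted p = 0.0172 with edgeR). Asns lay with this second set by its sign. Sqstm1, an autophagy receptor, rose by 0.38 ± 0.10 and 0.40 ± 0.10. In OE 5 of 28 rose and 5 fell, beside 13.1% and 9.91% of all genes, with a median of -0.07 beside -0.03.

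Of 11 cytosolic tRNA synthetases, 3 rose in Ctrl (Cars, Iars and Nars, by 0.24 to 0.36) and 1 in OE, Cars by 0.37 ± 0.08. Mitochondrial proteostasis had 0 of 7 higher and 3 lower in Ctrl (Clpp -0.72 ± 0.15, Hspd1 -0.51 ± 0.17, Clpx -0.46 ± 0.16) and 1 lower in OE, Clpp at -0.57 ± 0.15. Of 5 CHOP-linked apoptosis genes, Bcl2l11 (BIM) rose by 1.53 ± 0.21 in Ctrl and 0.96 ± 0.21 in OE, and Bcl2 fell by 0.54 ± 0.14 and 0.45 ± 0.14, while Ddit3 itself was not called. Macrophage and adipocyte markers moved between the same groups, as given above, and their part in these counts was not tested. Without Ctrl_8wk 1, OE_8wk 1 and OE_20wk 1 the higher genes in OE numbered 22 in place of 11, without OE_20wk 1 alone 21, and without the libraries with epididymal transcripts the lower genes in Ctrl numbered 29 in place of 18. Without Ctrl_8wk 2 the higher genes in Ctrl numbered 14 in place of 22, and without OE_8wk 3 the lower genes in OE numbered 7 in place of 11. With 2 surrogate variables few pathway genes were called, 2 higher and 0 lower in Ctrl and 5 and 1 in OE. With limma voom, 30 were lower in Ctrl and 25 higher in OE.

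**Figure D4:**
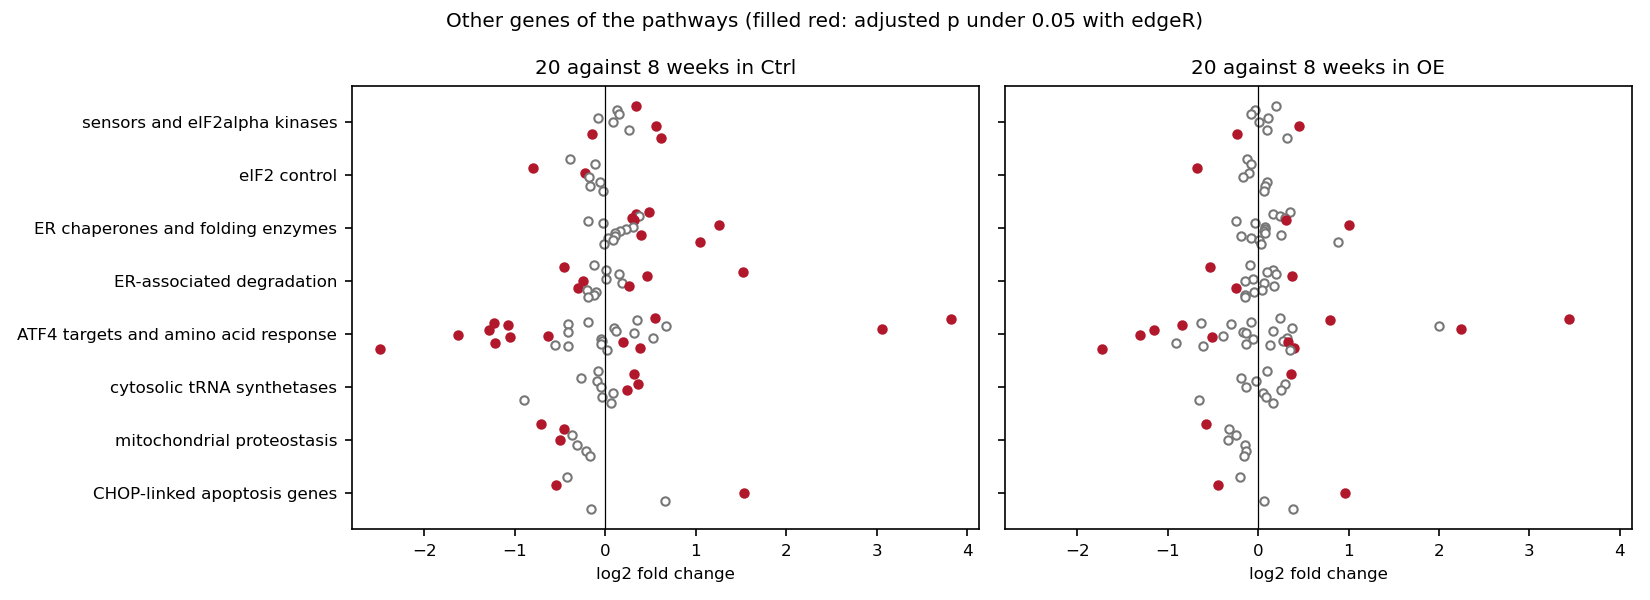
Each point is 1 gene of the 8 pathway lists, placed by its log2 fold change from 8 to 20 weeks in Ctrl (left) and OE (right), with called genes filled red. The ATF4 target list spans the widest range in Ctrl, from Stc2 at -2.49 to Atf3 at 3.82, and 7 of 18 chaperones are red on the positive side.

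Profiles over the 16 libraries were compared after each gene's log2 CPM was centred and scaled to an SD of 1, as a root mean square difference, where the median over all genes was 1.32 to 1.39 for the members. The gene nearest to Asns was Ndufv1, a subunit of mitochondrial complex I, at 0.158, followed by the mitochondrial isoleucine tRNA synthetase Iars2 (0.197). Atf5 was nearest to the mitochondrial ribosomal gene Mrpl20 (0.224), and Sesn2 to Trarg1 (0.271), a regulator of glucose transporter traffic. Hspa5 was nearest to Gm6210 (0.386), and after it to the ER stress genes Manf (0.471) and Serp1 (0.473). Chac1 had Slc3a2 (0.556) in second place, and Herpud1 was nearest to Rnf103 (0.422), an ER ubiquitin ligase. Xbp1 was nearest to Ptpn9 (0.433), Ddit3 to Ppp2r5b (0.320), Trib3 to Clstn3 (0.427) and Atf4 to Ppp1r10 (0.612). No member was among the 3 nearest of another member: the closest pair was Asns and Atf5 at 0.544, with Atf5 in place 1268 from Asns and Asns in place 1034 from Atf5. These distances rest on 16 libraries that share age groups and cell content.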

How the data were processed

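Total RNA was made into stranded mRNA libraries (TruSeq), per the labels' protocols. Reads were handled with bcl2fastq 2.20.0, Trimmomatic, HISAT2 2.1.0 and StringTie 2.1.3b on mm10, per the submitters' processing notes. The annotation release and the strand setting of the counting are not given in the sources used here. The deposited counts, whole numbers per gene and not normalised by the authors, were tested. The authors' deposited TPM were used to compare levels between genes, and 16 columns of FPKM were not used.

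Counts of all 4 groups were fitted together with edgeR 4.0.16 in R 4.3.3 (robust quasi-likelihood, filterByExpr at a minimum count of 10, TMM, 12 residual degrees of freedom). The 6 contrasts were adjusted by Benjamini-Hochberg over the 19189 genes tested, with calls at an adjusted p under 0.05. Log2 fold changes carry standard errors and 95% intervals. CPM are TMM-scaled, and log2 CPM used a prior count of 2. The depth of 33.6 to 67.6 M counts gave at least 135 counts for every member in every library. DESeq2 1.42.0, limma 3.58.1 (voom) and sva 3.50.0 served as alternatives, with other scaling, filters and left-out libraries. The fit was also run on simulated counts with few changed genes and no library set apart. That run does not cover the outlying libraries seen here.

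The members and lists were chosen with earlier results of these data known. Named are the 10 members, Lta4h, up to 4 called genes per pathway list, direction and age contrast by adjusted p, and genes from the 3 nearest profiles of each member, of which 1 is not reported here. Eif2ak3 and Ern1 were named after their values were seen. BLAST 2.17.0 was used to look for near-identical copies of the members among the transcripts, and none of at least 90% identity over 100 bases was found. Same-numbered libraries deviated together in some pairs and not in most (the closing section gives the range of the correlations), so no block was used. Plots came from matplotlib 3.10.9 under Python 3.11.15. No explanation of any difference was tested.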

Additional observations from a re-analysis of the deposited data

Results flagged for a closer look

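Of 40 groups of 4 libraries, 10 genes in each of 4 groups, 2 held a library far from the other 3 by Dixon's test, which chance alone flags in about 1 of 20 groups. Both are Ctrl_20wk 1. Its Xbp1 level was 178 CPM against 125 to 133 CPM in the other Ctrl_20wk libraries, and its Herpud1 level was 88.2 CPM against 40.4 to 46.6 CPM. The same library had the highest sums of B and plasma cell markers and of T cell markers of all 16, at 287 and 54.2 CPM. The part of those cells in both levels was not tested. Without it, Xbp1 was lower at 20 weeks in Ctrl by -0.46 ± 0.09 on the log2 scale (adjusted p = 0.0024 with edgeR) in place of -0.33 ± 0.11, and Herpud1 by -0.53 ± 0.21 (adjusted p = 0.0674) in place of -0.21 ± 0.25.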

How the results depend on the processing

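Across 26 alternatives (25 for the average and the interaction), 0 members were called in either direction in any genotype comparison or in the interaction, and 0 were called higher in Ctrl with age. The 3 members lower in Ctrl stayed between 2 and 4 except with 2 surrogate variables, which left 0 and turned Atf5 to 0.084 (adjusted p = 0.880) and Asns to 0.25 (adjusted p = 0.740 with edgeR), both not called. The cause was not tested. The members higher in OE, 0 in the report, numbered 1 with DESeq2, with only the groups compared and without Ctrl_8wk 4 and OE_8wk 2, 2 with surrogate variables and without Ctrl_8wk 1 and OE_8wk 1, with or without OE_20wk 1, and 3 with voom. With each library left out they ranged from 0 to 2. The members lower in OE, 1 in the report, numbered 0 with surrogate variables and 2 with voom and without Ctrl_8wk 4 and OE_8wk 2, and ranged from 0 to 2 with each library left out. Ddit3 was called higher in OE under 9 of the 26 alternatives and Xbp1 lower in Ctrl under 15. The pathway genes higher in Ctrl were 2 and those lower 0 with surrogate variables, and in OE 5 and 1. With voom the pathway genes lower in Ctrl were 30 and those higher in OE 25, and without Ctrl_8wk 1 and OE_8wk 1 the latter were 18. These pathway counts were added after the data were seen. Replicate numbers are shared between groups, and correlations of same-numbered deviations ran from -0.57 to 0.83. The highest was between Ctrl_8wk 1 and OE_8wk 1, but most same-numbered libraries did not match best, so the numbers do not pair the libraries throughout. Whether libraries were handled together in another arrangement was not tested. With the replicate number as a block, 2 members were lower in Ctrl and 1 in OE. Every member had at least 135 counts in every library, with 4 libraries per group. How far counting and the spread between libraries each limit precision was not measured.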
